A study of Homo sapiens with 6 samples.

Results

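The genes described here are the 10 that encode the shared and specific subunits of the mTOR complexes, the TSC brake and S6 kinase 1. They were picked out by symbol (MTOR, MLST8, DEPTOR, RPTOR, AKT1S1, RICTOR, MAPKAP1, TSC1, TSC2 and RPS6KB1), with earlier results of these data known. They are 10 of the 20461 entries with an Ensembl identifier in the deposited tables. All 10 were found under 1 entry each and passed the filter on low counts, which kept 13645 genes. Transcripts were measured by RNA sequencing in ARPE-19, an established human cell line of the retinal pigment epithelium. Lentivirus was added at an MOI (infectious virus particles per cell) of 10, either a control virus (the control group, 3 libraries) or a virus that overexpresses PDZK1, a membrane scaffold protein (the PDZK1 group, 3 libraries). Both groups had been selected with 4 µg/ml puromycin and then held in 37.5 mM glucose for 48 h, so high glucose is common to all 6 libraries and is not itself compared. The promoter that drives PDZK1 is not named in the sources used here, and neither is whether the selected cells were a pool or a clone. Nothing in the labels says that the 3 libraries of a group came from separate cultures, so p-values measure the spread between these libraries, which may be technical.

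The mTOR kinase joins growth factor, energy and amino acid signals to protein synthesis, growth and autophagy. It works in 2 complexes. In mTORC1 the scaffold raptor (RPTOR) brings substrates such as S6 kinase to the kinase, and in mTORC2 the scaffold rictor (RICTOR) and SIN1 (MAPKAP1) direct it to AKT and related kinases. The TSC complex of hamartin (TSC1) and tuberin (TSC2) restrains mTORC1 by switching off the small GTPase RHEB, and it is itself restrained by AKT. In the retinal pigment epithelium this pathway is known for its part in cell growth, dedifferentiation and autophagy. Much of its regulation is by phosphorylation and binding, which transcript levels do not report.

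Library totals ran from 27970618 counts in control replicate 3 to 32804567 in PDZK1 replicate 2. PDZK1 itself, which checks the labels, had 18 to 23 counts in the controls, against 2541 to 3020 with PDZK1 (log2 fold change 7.03, SE 0.13, edgeR adjusted p 8.16e-09). Of the markers of the labelled cell type, keratin genes KRT8 (1073 to 1221 CPM, reads scaled to the TMM-adjusted library size) and KRT18 (699.5 to 826.1 CPM) and the regulators OTX2 (57.0 to 76.2 CPM) and MITF (35.4 to 46.5 CPM) were abundant. RLBP1 lay at 3.08 to 5.18 CPM, while RPE65, the visual cycle isomerase, had 0 counts in every library and TYR at most 2. A count of 0 allows up to 3 counts, or 0.0915 to 0.109 CPM in these libraries. The photoreceptor marker CRX, the endothelial marker CDH5 and the leukocyte markers PTPRC and CD3E were also at 0, whereas CD68, a lysosomal protein gene listed with the leukocytes, lay at 123 to 160 CPM. Of the remaining markers of other cell types, NRL (photoreceptors) had 17 to 48 counts, RCVRN (photoreceptors) 0 to 3, VWF (endothelium) 0 to 22 and PECAM1 (endothelium) 0 to 6. BEST1, a further marker, held 11459 counts in PDZK1 replicate 1 and 124 to 181 in the other libraries.

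The question was whether PDZK1 overexpression in high glucose goes with another level of the transcripts that make up the mTOR machinery. MTOR fell, by 17.1% (95% interval -23.4% to -10.3%), and was the only one of the 10 genes past the threshold of an adjusted p under 0.05. Among all 13645 tested genes 3.83% were called in either direction, and here 1 of 10 genes was, with 1 lower (2.41% of all genes) and 0 higher (1.41%). The other 9 genes were not past the threshold, and 9 of the 10 genes, DEPTOR being the exception, had a 95% interval that lay wholly within a 1.5-fold change in either direction, as did 78.4% of tested genes. The log2 fold changes of the 10 genes had a median of -0.014, with 7 below 0 and 3 above, beside a median of -0.00025 over all tested genes. Their median absolute log2 fold change was 0.046, beside 0.085 over all tested genes. Their median SE was lower too, 0.051 beside 0.075. Genes of like abundance were not compared, so these values do not show that the 10 genes were steadier than others. Because these are bulk libraries, fewer cells that express a gene and less RNA per cell cannot be told apart.

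**Figure D1:**
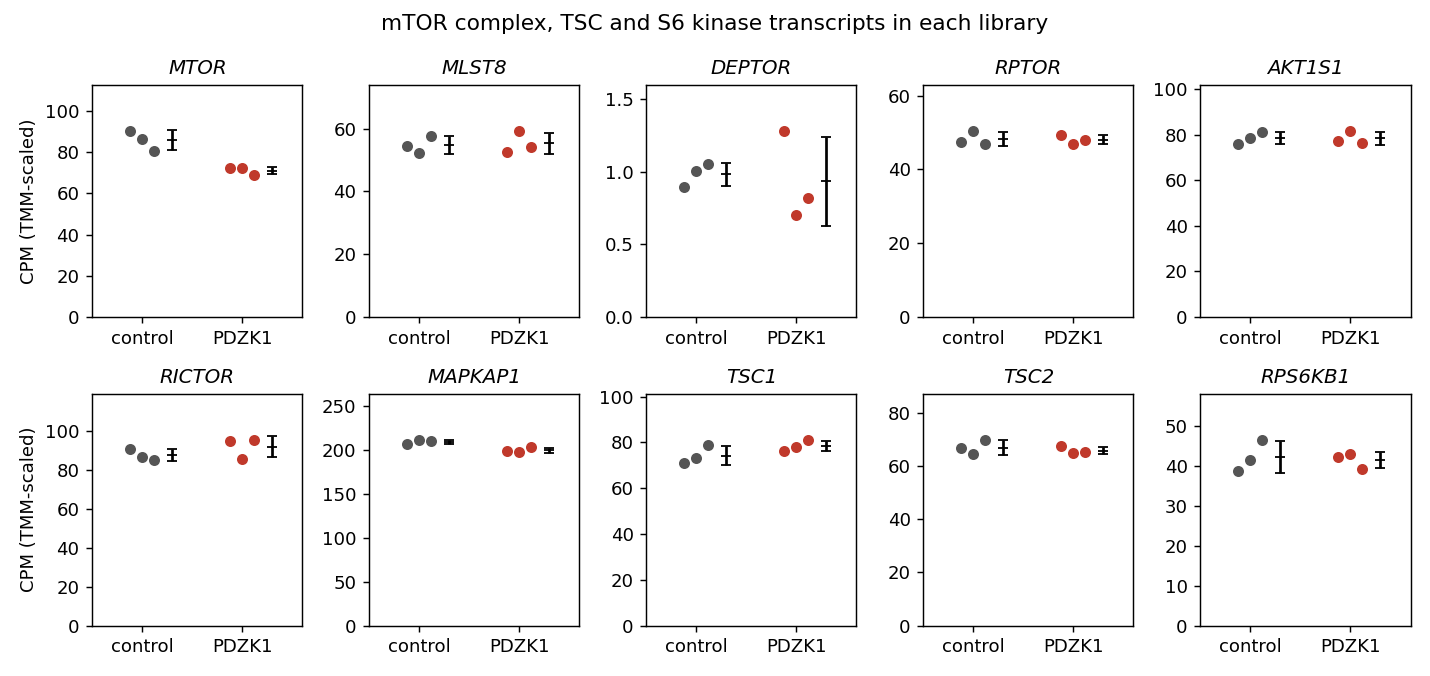
Level of each of the 10 transcripts in every library, in TMM-scaled CPM on axes that start at 0 and differ between panels. Points are single libraries, the bar beside each group is the mean with its SD (n = 3), and the MTOR and MAPKAP1 groups are the ones that do not overlap.

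The kinase gene MTOR (ENSG00000198793, GRCh38 chromosome 1, 11106535 to 11262507, minus strand) stood at 90.1, 86.6 and 80.6 CPM in control replicates 1 to 3 and at 72.2, 72.3 and 68.9 CPM in PDZK1 replicates 1 to 3. Every PDZK1 library lay below every control library, and the control libraries were the more scattered. The group means were 85.8 ± 4.81 and 71.1 ± 1.93 CPM (SD, n = 3 each), a log2 fold change of -0.27 (SE 0.051, 95% interval -0.39 to -0.16, edgeR quasi-likelihood adjusted p 0.0195). Counts of 2184 to 2911 reads leave a counting error of 1.85% to 2.14% per library, which is smaller than the spread between libraries of a group (5.61% and 2.72%). On the deposited FPKM, which also divide by transcript length, MTOR went from 8.98 ± 0.569 to 7.45 ± 0.156 (SD, n = 3 each), again without overlap. On log2(FPKM + 1) the difference was -0.24 (limma adjusted p 0.120), which was not past the threshold.

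The call of MTOR was lost in 5 of the 6 fits that left out 1 library, but its direction was kept. Such fits have fewer libraries in a group. In the 5 fits without the call, calls over all tested genes also fell, from 522 to between 181 and 293. The adjusted p in edgeR was 0.0743 when control replicate 1 was dropped and 0.104 when control replicate 2 was. It was 0.0856, 0.0542 and 0.106 when PDZK1 replicates 1, 2 and 3 were dropped in turn. With control replicate 3 dropped it was 0.00262. The log2 fold change stayed between -0.31 and -0.23 over these fits, and over all 19 alternatives other than a subtraction of counts described with the overlapping genes. Of these 19, 10 kept the call.

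**Figure D2:**
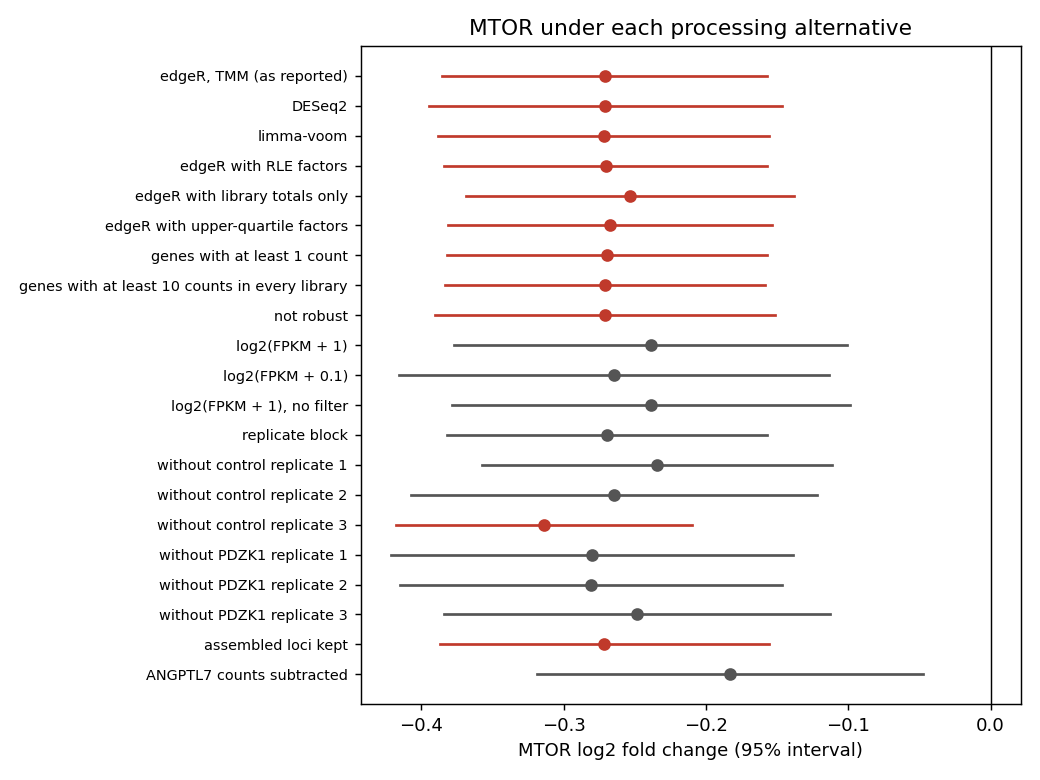
Log2 fold change of MTOR, PDZK1 against control, with its 95% interval, as reported (top) and under each of 20 alternatives; red marks an adjusted p under 0.05. All values lie between -0.31 and -0.18, the latter with ANGPTL7 counts subtracted, and 10 of the alternatives are not past the threshold.

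The other subunits that both complexes share did not follow MTOR past the threshold. MLST8 (ENSG00000167965, chromosome 16, 2204248 to 2209416, plus strand), a small subunit bound to the kinase domain, stood at 54.4, 52.3 and 57.7 CPM in the controls, against 52.5, 59.1 and 54.3 CPM with PDZK1. The groups overlapped, and its log2 fold change was 0.014 (95% interval -0.12 to 0.15, edgeR adjusted p 0.941). DEPTOR (ENSG00000155792, chromosome 8, 119873717 to 120050913, plus strand), an inhibitor that binds the kinase, was the scarcest of the 10 genes. It had 29, 31 and 29 counts in the controls, against 41, 23 and 26 with PDZK1. The PDZK1 libraries spanned the control libraries on both sides. Its log2 fold change was -0.075 with a 95% interval from -0.80 to 0.65, so changes of either sign within that range were not excluded.

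**Figure D3:**
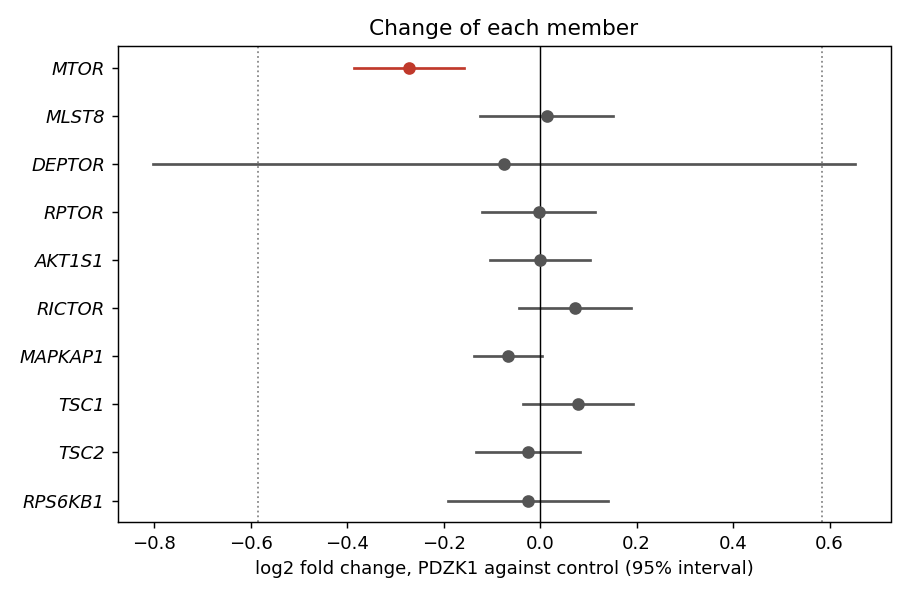
Log2 fold change of each of the 10 genes, PDZK1 against control, with its 95% interval from the edgeR model; red marks an adjusted p under 0.05 and the dotted lines mark a 1.5-fold change. MTOR lies at -0.27, and the interval of DEPTOR (-0.80 to 0.65) is the only one that crosses the dotted lines.

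The genes specific to mTORC1 stood at nearly equal means in the groups. RPTOR (ENSG00000141564, chromosome 17, 80544819 to 80966371, plus strand) was at 47.3, 50.3 and 46.8 CPM in the controls, against 49.4, 46.9 and 47.8 CPM with PDZK1. Its log2 fold change was -0.0031 (95% interval -0.12 to 0.11, edgeR adjusted p 0.988). AKT1S1 (ENSG00000204673, chromosome 19, 49869033 to 49878459, minus strand), which encodes the raptor-bound inhibitor PRAS40, was at 75.8, 78.5 and 81.2 CPM and 77.3, 81.6 and 76.5 CPM, with overlapping groups. Its log2 fold change was -0.00060 (95% interval -0.10 to 0.10, edgeR adjusted p 0.997). Differences beyond 8.24% for RPTOR and 7.41% for AKT1S1 on the high side, and beyond -8.00% and -6.98% on the low side, were outside these intervals. RPTOR and AKT1S1 both reversed sign under some alternatives, never past the threshold.

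The genes specific to mTORC2 had small differences of opposite sign. MAPKAP1 (ENSG00000119487, chromosome 9, 125437393 to 125707234, minus strand), the most abundant of the 10, was at 207, 211 and 210.1 CPM in the controls, against 199, 198 and 203 CPM with PDZK1. On CPM these groups did not overlap, which held for 23.9% of all tested genes, and for 2 of the 10 genes here. The difference was -4.53% (95% interval -9.08% to 0.248%, edgeR adjusted p 0.311), with a spread between libraries of 1.13% in the controls and 1.42% in the PDZK1 group. On the deposited FPKM the MAPKAP1 groups did overlap (61.98 to 67.91 in the controls, 58.55 to 62.80 with PDZK1). RICTOR (ENSG00000164327, chromosome 5, 38937919 to 39074408, minus strand) was at 90.9, 86.5 and 84.8 CPM and 94.8, 85.7 and 95.2 CPM. PDZK1 replicate 2 fell inside the range of the control libraries, and the log2 fold change was 0.072 (95% interval -0.043 to 0.19, edgeR adjusted p 0.527). Both genes kept their sign, with no call, in all 18 alternatives run for each.

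The balance between the scaffolds that define the complexes was compared as the log2 ratio of RPTOR to RICTOR CPM in each library. It was -0.86 ± 0.080 in the control libraries and -0.93 ± 0.061 in the PDZK1 libraries (SD, n = 3 each). The difference of -0.074 was not distinguishable (two-sided exact permutation p 0.3, where 0.1 is the smallest that 3 against 3 libraries allow). It was also negative on deposited FPKM and without each library in turn, from -0.11 to -0.035 over these 7 alternatives.

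The TSC brake was likewise not past the threshold in either subunit. TSC1 (ENSG00000165699, chromosome 9, 132891348 to 132946874, minus strand) was at 71.0, 73.1 and 78.7 CPM in the controls, against 76.4, 77.8 and 81.0 CPM with PDZK1. Control replicate 3 lay among the PDZK1 libraries, and the log2 fold change was 0.079 (95% interval -0.035 to 0.19, edgeR adjusted p 0.480). TSC2 (ENSG00000103197, chromosome 16, 2047465 to 2089487, plus strand), whose protein carries the GTPase-activating domain, was at 66.7, 64.4 and 69.7 CPM and 67.5, 64.8 and 65.1 CPM. Its log2 fold change was -0.024 (95% interval -0.13 to 0.084, edgeR adjusted p 0.850). The log2 ratio of TSC1 to TSC2 was 0.15 ± 0.052 and 0.25 ± 0.068 (SD, n = 3 each), a difference of 0.10 (two-sided exact permutation p 0.2, smallest possible 0.1). It was 0.19 on the deposited FPKM.

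For TSC2 the tables of counts and of FPKM moved apart within the PDZK1 group. Its FPKM ran from 9.60 to 10.96 in the controls and were 10.6, 9.54 and 8.90 with PDZK1, so PDZK1 replicate 3 was the lowest of the 6 by FPKM but not by CPM. The transcript length that relates a count to its FPKM came to 7344 bases in that library and to 6278 to 6782 in the other 5. The highest of these lengths was 1.17 times the lowest, a wider range than in 81.3% of tested genes, whose median was 1.05 times. For MTOR the same lengths ran from 9407 to 9687 bases, 1.03 times, a wider range than in 39.0% of tested genes. RICTOR had the steadiest length of the 10, at 1.01 times.

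RPS6KB1 (ENSG00000108443, chromosome 17, 59893046 to 59950564, plus strand) encodes S6 kinase 1, the mTORC1 substrate whose phosphorylated form the study followed as protein. It stood at 38.6, 41.4 and 46.4 CPM in the controls, against 42.2, 42.9 and 39.1 CPM with PDZK1. All PDZK1 libraries lay within the range of the controls, which were spread by 9.38%, the widest of the control groups. The log2 fold change was -0.025 (95% interval -0.19 to 0.14, edgeR adjusted p 0.905), and its sign turned without control replicate 3 (0.049) and without PDZK1 replicate 3 (0.015).

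Levels can be compared between genes on the FPKM, which count fragments per length. In the control libraries MAPKAP1 had the highest level (64.8 ± 2.98 FPKM, SD, n = 3), followed by MLST8 (29.8 ± 1.20) and AKT1S1 (28.1 ± 1.24), whose libraries overlapped. TSC2 (10.3 ± 0.682), MTOR (8.98 ± 0.569), TSC1 (8.95 ± 0.664) and RICTOR (8.40 ± 0.302) formed a close group in which MTOR and TSC1, and TSC1 and RICTOR, were not separated. RPS6KB1 (7.33 ± 0.725) overlapped RPTOR (6.55 ± 0.300), and DEPTOR came last at 0.372 ± 0.0447 FPKM. In the PDZK1 libraries the order was the same but for MTOR, which went from rank 5 to rank 7 of the 10 genes. There it lay below every RICTOR library and overlapped RPS6KB1 (7.20 ± 0.267).

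The sources used here do not state whether reads were counted by strand, so the annotated genes that overlap the 10 were examined in GENCODE release 29. ANGPTL7, an angiopoietin-like gene on the opposite strand, lies inside MTOR (chromosome 1, 11189341 to 11195981). It was itself lower, at 274, 281 and 291 counts in the controls, against 151, 91 and 123 with PDZK1 (log2 fold change -1.31, edgeR adjusted p 0.00513). Of its 2238 exonic bases, 0 are shared with an annotated exon of MTOR, so it falls between MTOR exons. As an extreme case, in which every ANGPTL7 read had also been counted for MTOR, each library's ANGPTL7 count was taken off its MTOR count. Since ANGPTL7 was itself lower, this shrinks the difference by construction, and the log2 fold change of MTOR was -0.18 (95% interval -0.32 to -0.048, edgeR adjusted p 0.144). The annotation used for the deposited counts is not given in the sources used here. Whether reads of ANGPTL7 entered the MTOR counts was not tested. The antisense gene MTOR-AS1 shares 220 exonic bases, 1.82% of those of MTOR.

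Overlaps of the other genes covered at most 9.61% of their exonic bases. That value was for DEPTOR, with a long noncoding RNA gene that is not analysed here. RICTOR shares 229 exonic bases (1.69%) with OSMR, an interleukin-6 family receptor gene whose mean was 150.6 CPM in the control and 124.7 CPM in the PDZK1 libraries (log2 fold change -0.27, edgeR adjusted p 0.0997). AKT1S1 shares 6.83% of its exonic bases with TBC1D17 (log2 fold change -0.081, edgeR adjusted p 0.483). TSC2 shares 402 bases with NTHL1 (0.040, edgeR adjusted p 0.905) and 778 bases with PKD1 (-0.046, adjusted p 0.752), the polycystin gene at its 3' end. MLST8 shares 164 bases with BRICD5 (-0.24, edgeR adjusted p 0.788). TSC1 shares 349 bases with GFI1B, which had 0 counts throughout, and RPS6KB1 shares 149 bases with an unnamed protein-coding entry, ENSG00000267318, of at most 3 counts. No numbered pseudogene of the 10 genes is annotated (0 for each).

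MTOR was also set beside the genes around it, because earlier results of these data had shown lower levels around it. The counts that follow therefore describe a known pattern and do not test it. Of 26 tested genes whose transcription start lies within 1 Mb of that of MTOR, 25 had a log2 fold change below 0, against 50.1% of all tested genes. Lower past the threshold were 8 of the 26 (2.41% of all tested genes were), and 0 were higher. Among these 8 were PGD, an enzyme of the pentose phosphate pathway (-0.23), DFFA, the inhibitor of an apoptotic nuclease (-0.40), and MFN2, a mitochondrial fusion protein (-0.25). The median over the 26 genes was -0.22, and MTOR lay 0.056 below it, with 7 of the 26 lower than MTOR.

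**Figure D4:**
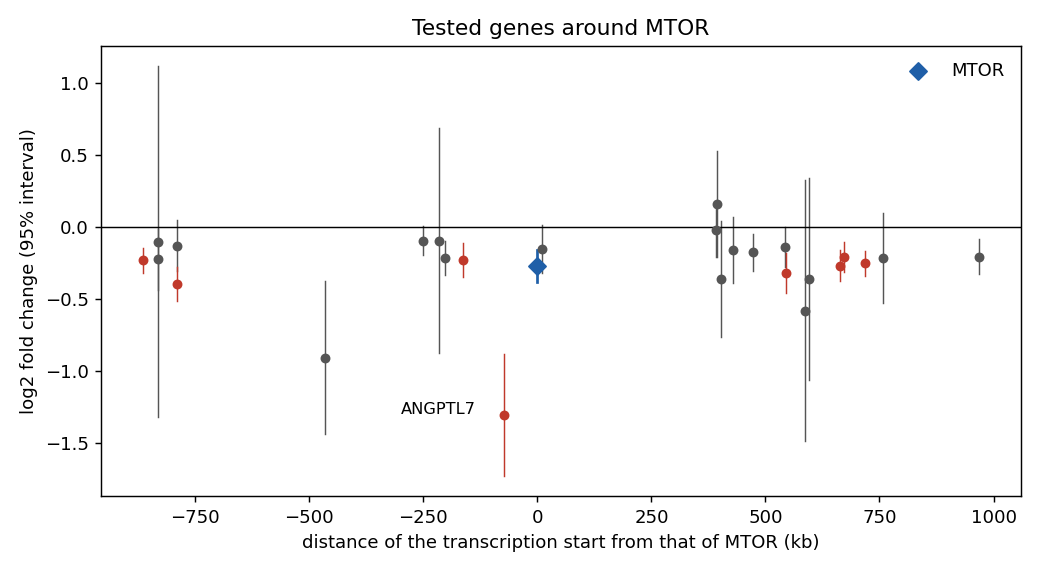
Log2 fold change (95% interval) of the 26 tested genes around MTOR against the distance of their transcription start from that of MTOR in kb; red marks an adjusted p under 0.05 and the blue diamond is MTOR. All but 1 of the neighbours lie below 0, with a median of -0.22 beside -0.27 for MTOR, and ANGPTL7 lies lowest at -1.31.

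Measured library by library, the median deviation of these 26 genes from their 6-library means was 0.10, 0.13 and 0.12 log2 units in the controls, against -0.11, -0.14 and -0.098 with PDZK1. MTOR deviated by 0.21, 0.15 and 0.047 and by -0.11, -0.11 and -0.18. The distance of MTOR from its neighbours was then 0.10, 0.018 and -0.076 in the controls, against 0.00016, 0.026 and -0.082 with PDZK1. On that scale the groups overlapped, and their means of 0.015 and -0.019 differed by -0.034, which is smaller than the spread between libraries (pooled SD 0.075). The difference of fitted values, -0.056, ranged from -0.10 to -0.0049 over windows of 0.5 and 2 Mb and the fits without 1 library each. What lies behind the lower level of the neighbourhood was not tested.

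The windows around the other 9 genes were counted in the same way, with no test between windows. Of 65 tested neighbours of MLST8, 32 were below 0, and of 62 around TSC2, 30 were. Around RPTOR 10 of 22 were below 0, around AKT1S1 25 of 45, around TSC1 14 of 24, around MAPKAP1 5 of 12 and around RPS6KB1 9 of 17. DEPTOR had 7 of 9 below 0 with a median of -0.090, and RICTOR 2 of 3. In these 9 windows 1 neighbour, of AKT1S1, was lower past the threshold and 0 were higher.

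The genes whose level across the 6 libraries was most like that of MTOR were ranked by Pearson's r of log2 CPM among 11099 genes with a mean of at least 5 CPM. The first 5 were DIAPH3, a formin that nucleates actin (r 0.997), SDF4 (0.992), CPA4, a carboxypeptidase (0.992), PPP3R1, the regulatory subunit of calcineurin (0.992), and SDC3, a syndecan (0.989). These points share the split into groups, and r is given as a description only. Among the 9 other genes of the machinery r with MTOR ran from -0.85 for TSC1 to 0.75 for MAPKAP1. SDF4 (1216908 to 1232031) and SDC3 (30869467 to 30908761) lie on chromosome 1, like MTOR. SDF4 (-0.20, edgeR adjusted p 0.0146), CPA4 (-0.33, 0.0104) and SDC3 (-0.72, 0.00403) were lower past the threshold, and DIAPH3 (-0.16, 0.0729) and PPP3R1 (-0.11, 0.239) were not.

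Around the 10 genes, 83 further genes of the pathway were listed by role, and all 83 were tested. Past the threshold were 5 of them (6.02%, beside 3.83% of all tested genes), with 3 higher (1.41% of all tested genes were) and 2 lower (2.41%). An unadjusted edgeR p under 0.05 was reached by 14 of the 83, and by 17.5% of all tested genes. Groups did not overlap for 18 of the 83, and for 23.9% of all tested genes. Neither count was above the share over all genes. A log2 fold change below 0 was found for 38 and one above 0 for 45, where 50.1% of all tested genes lay below 0. Their median was 0.020. The 95% interval lay within a 1.5-fold change for 81 of the 83, and for 78.4% of all tested genes.

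**Figure D5:**
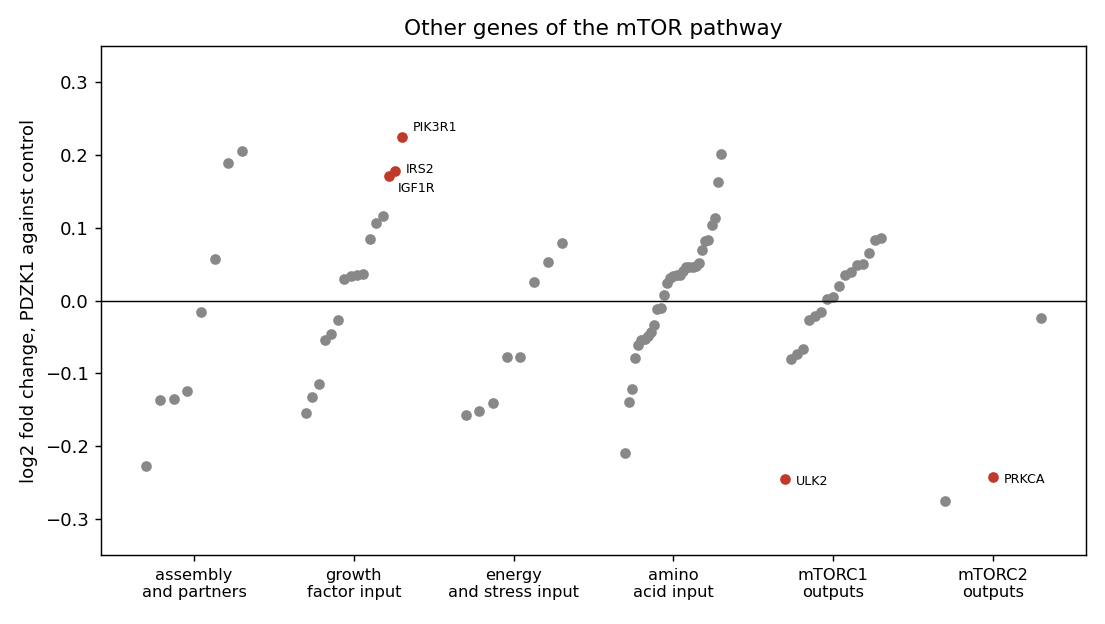
Log2 fold change, PDZK1 against control, of 83 further pathway genes in 6 groups by role, sorted within each group; red marks an adjusted p under 0.05. The 3 genes higher past the threshold are in growth factor input, and ULK2 and PRKCA are the 2 lower ones.

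Growth factor input held the 3 higher genes, of 16 listed, where 1.41% of all tested genes were called higher. PIK3R1, the regulatory subunit of PI3-kinase, was at 69.8, 72.9 and 73.7 CPM in the controls, against 84.5, 80.6 and 87.8 CPM with PDZK1 (log2 fold change 0.23, edgeR adjusted p 0.0303). IRS2, a docking protein of the insulin receptor, was at 126.7, 120.7 and 126.7 CPM and 135, 142 and 146 CPM (0.18, edgeR adjusted p 0.0393). IGF1R, a receptor tyrosine kinase for insulin-like growth factors, was at 109, 114 and 114 CPM and 129, 123 and 127 CPM (0.17, edgeR adjusted p 0.0322). None of the 3 overlapped between groups, and 11.6% of all tested genes were higher without overlap. Other genes there were not past the threshold, among them the insulin receptor gene INSR (-0.11, edgeR adjusted p 0.579), AKT1 (0.034, 0.734) and AKT2 (-0.15, 0.0631).

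The 2 lower genes were on the output side, where 2.41% of all tested genes were called lower. The group of 3 mTORC2 outputs is too small to set against that share. ULK2, an autophagy kinase related to the mTORC1 substrate ULK1, was at 59.5, 59.1 and 60.2 CPM in the controls, against 48.7, 49.0 and 53.1 CPM with PDZK1 (log2 fold change -0.25, edgeR adjusted p 0.0325), the 1 called of 17 mTORC1 outputs. On log2(FPKM + 1) its difference was -0.11. Its relative ULK1 stood at 0.086 (edgeR adjusted p 0.527), and the translation genes EIF4EBP1 (0.0047, 0.985) and EIF4E (0.0018, 0.990) were near 0. RPS6, the ribosomal target of S6 kinase, has 13 numbered pseudogenes, so its value (-0.016, edgeR adjusted p 0.909) is uncertain. PRKCA, a protein kinase C that mTORC2 phosphorylates, was at 114, 113 and 124 CPM and 95.6, 105 and 96.5 CPM (-0.24, edgeR adjusted p 0.0303), the 1 called of 3 mTORC2 outputs. NDRG1, a target of the kinase SGK1 downstream of mTORC2, had the largest value of the list but did not pass (-0.27, edgeR adjusted p 0.357), and ran from -0.41 to -0.17 with each library dropped in turn.

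Each of these 5 calls was lost in most of the fits that left out 1 library and so had fewer libraries in a group. Calls over all tested genes fell as well, from 522 to between 181 and 293, except without control replicate 3 (875). IGF1R and IRS2 kept theirs with only 1 of the 6 libraries dropped, control replicate 3 (edgeR adjusted p 0.0206 and 0.0239). PIK3R1 and PRKCA kept theirs without control replicate 3 (0.0184 and 0.0297) and without PDZK1 replicate 2 (0.0400 and 0.0303), and ULK2 without control replicate 3 (0.0363) and without PDZK1 replicate 3 (0.0425). All 5 kept their direction with each library dropped.

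In the remaining groups 0 genes were called by edgeR. At an unadjusted p under 0.05, which 17.5% of all tested genes reached, there were 2 of 8 for assembly and partners, 1 of 8 for energy and stress and 1 of 31 for amino acid input, and in growth factor input there were 7 of 16. Their largest values were for TELO2, a chaperone of mTOR and related kinases (-0.23, edgeR adjusted p 0.0910), PRKAG2, a subunit of the energy sensor AMPK (-0.16, 0.519), and SESN3, a sestrin (-0.21, 0.260). With each library dropped in turn PRKAG2 ran from -0.23 to -0.053 and SESN3 from -0.26 to -0.12. TELO2 was called when control replicate 3 was dropped, and with no other single library dropped (-0.27, edgeR adjusted p 0.0356). The RHEB transcript, whose protein TSC2 acts on, stood at 0.058 (edgeR adjusted p 0.580). YWHAE, which encodes the 14-3-3 protein that the study links to mTOR, was at 497.5 ± 9.07 CPM in the control and 492.2 ± 4.20 CPM in the PDZK1 libraries (SD, n = 3 each, edgeR log2 fold change -0.015, adjusted p 0.863), and 6 numbered pseudogenes make its count uncertain.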

How the data were processed

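Estimated counts per gene, deposited by the authors as whole numbers with no scaling for depth, were read for 6 libraries, and FPKM deposited by the authors were read for the same libraries. The submitters' processing notes name fastp 0.20.1, HISAT2 2.2.1 and GRCh38; the counting program and strandedness are not given in the sources used here. Of the per-sample columns, 3 in either table carry names that no sample here has, and they stayed unused. Entries named as assembled loci (853 of 21314 rows, 0.519% to 0.536% of a library's counts) were left out. Of the 20461 Ensembl entries, 20229 matched GENCODE release 29 (GRCh38), which gave the coordinates.

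Counts were filtered with filterByExpr (13645 genes), scaled by TMM and tested with the robust quasi-likelihood test of edgeR 4.0.16 in R 4.3.3 without covariates, Benjamini-Hochberg adjusted over all tested genes at 0.05. Alternatives used DESeq2 1.42.0 and limma 3.58.1 (voom, or FPKM on the log2 scale, adding 1 or 0.1, with genes averaging 0.5 FPKM or more, or all genes), other scalings and filters, the replicate number as a block and each library left out. The model fit was tested on simulated data. Intervals are 95% model intervals, and counting errors cover counting error only, since no molecular identifiers are stated.

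The 10 genes, the list of 83 pathway genes and the tests were chosen with earlier results of these data known. The text names the 10 genes, genes that overlap them, called pathway genes, YWHAE, the largest value of each pathway group at a mean of at least 5 CPM and the 5 genes most like MTOR. The other pathway genes and MTOR neighbours were named after their values were seen. Some genes that these rules would name are not reported here.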

Additional observations from a re-analysis of the deposited data

How the results depend on the processing

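The count of called genes was 806 with DESeq2, 184, 185 and 185 on log2(FPKM + 1), log2(FPKM + 0.1) and log2(FPKM + 1) without a filter, 163 with the replicate block and 181 to 875 without 1 library each, against 522. Of the 10 genes, 0 were called in the FPKM fits and with the block, and 0 to 1 without 1 library each. Of the 83 pathway genes, 2 were called by limma-voom, 3 without robust estimation, 0 in the FPKM fits and with the block, and 0 to 8 without 1 library each, against 5. MTOR was not past the threshold on FPKM (-0.24, -0.26 and -0.24, adjusted p 0.118 to 0.146), with the replicate block (-0.27, adjusted p 0.0552) or with ANGPTL7 counts subtracted (-0.18, smaller by construction), and ran from -0.31 to -0.23 without 1 library each; the cause was not tested. Kept assembled loci, added after seeing the data, left 1 of the 10 genes called. Deviations from the group means of libraries that share a number had correlations of -0.046, -0.056 and -0.14, and 0 of 6 libraries correlated best with their own number, so the block pairs nothing known.

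Signs near 0 turned without any call. AKT1S1 was 0.00039 with DESeq2, 0.0010 with limma-voom and with genes of at least 1 count, 0.017 on library totals, 0.0028 on upper-quartile factors and 0.062, 0.064 and 0.062 on FPKM. RPTOR was 0.015 on library totals and 0.00022 on upper-quartile factors, and YWHAE 0.0025 on library totals. Without 1 library each, AKT1S1 ran from -0.028 to 0.024, RPTOR from -0.023 to 0.029, MLST8 from -0.035 to 0.052, DEPTOR from -0.37 to 0.096, TSC2 from -0.052 to 0.0055 and RPS6KB1 from -0.084 to 0.049. DEPTOR fell under the FPKM filter, and its few counts limit its precision.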
